A study of Mus musculus with 84 samples.

Results

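The 10 genes described here encode the main proteins of the sensory axon's cytoskeleton and 3 small proteins tied to it. They are the neurofilament subunits Nefl, Nefm and Nefh, the related filament genes Ina and Prph, the tubulins Tuba1a and Tubb3, the microtubule regulator Stmn2, and the actin-binding thymosins Tmsb4x and Tmsb10. They were chosen by name, and all 10 were found among the 50686 genes of the count table. Their levels are given as CPM (a gene's counts in a neuron, out of 1000000 in all) in each neuron with 5000000 or more total counts. That limit kept 72 of 84 neurons. The deepest neuron left out had 3892206 counts and the shallowest kept had 6732279.

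Each sample was 1 sensory neuron from the vagal ganglia of a mouse of strain C57BL/6. The neurons had taken up the lipophilic dye DiI (2%), a tracer carried back along axons from the airways, and all 84 belong to a single labelled group with no other treatment or genotype. The labels do not name the animals, their age, or whether a neuron came from the nodose or the jugular ganglion, so no replicate exists, and spreads over neurons are given with no p-value. The mRNA of each neuron was amplified before sequencing with 76-base reads.

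Neurofilaments are heteropolymers that fill the axon, and their subunits are most abundant in large, myelinated (A-fibre) sensory neurons. Peripherin is a filament protein of small neurons with unmyelinated (C-fibre) axons, which make up most vagal afferents, although many sensory neurons hold both. For that reason the ratio of heavy neurofilament to peripherin is used as a guide to fibre type, and here it is a guide from RNA alone, with no measure of axon calibre or conduction.

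Kept neurons had 6732279 to 20668832 counts (median 12860292), and between 841 and 8870 genes reached 10 CPM in a neuron (median 5855.5). In the shallowest kept neuron, 10 CPM corresponded to 67.3 counts. Because the number of genes detected varied so widely, results are also given for the 38 neurons with 5000 or more genes at 10 CPM. Of 8 pan-neuronal and sensory marker genes, at least 4 reached 10 CPM in 66 of 72 neurons. The 6 neurons below this were AM078, AM244, AM251, AM278, AM286 and AM297, and the lowest had 1 marker. Summed levels of satellite glia genes ran from 9.01 to 56618 CPM, and leukocyte genes had a median sum of 0.18 CPM, with Ptprc at 10 CPM in 2 neurons. The neuron identifiers fall into 3 runs of numbers (AM002 to AM023, AM059 to AM086, AM210 to AM304) with 16, 11 and 45 kept neurons, called runs 1 to 3 below. The labels do not call these runs batches.

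Most of these transcripts were found in nearly all neurons. Prph, Tuba1a, Stmn2 and Tmsb4x reached 10 CPM in all 72 neurons, so 4 of 10 genes were present throughout, against a background of 0.324% of the 16068 genes detected in any neuron. Apart from Ina, every gene of the set reached 10 CPM in at least 50% of neurons, where the background was 34%. The 10 genes together took a median of 3.58% of a neuron's counts. Set per kilobase of exon, which allows genes to be compared, the median level of Tuba1a was 6832 CPM per kb and that of Tmsb4x was 4643. These were the highest and second highest of 11330 genes. Prph (1193 CPM per kb), Nefl (1126) and Stmn2 (937) formed a middle group, followed by Tubb3 (333), Nefh (198), Nefm (126) and Tmsb10 (14.9). With the length of each gene's first listed transcript in place of all its exons, Tmsb4x (8289) stood above Tuba1a (6832), Stmn2 (2532) above Prph (1357), and Nefm (218) above Nefh (198). The order of those neighbours therefore rests on the length used, and how evenly the amplification covered transcripts is not given in the sources used here.

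**Figure D1:**
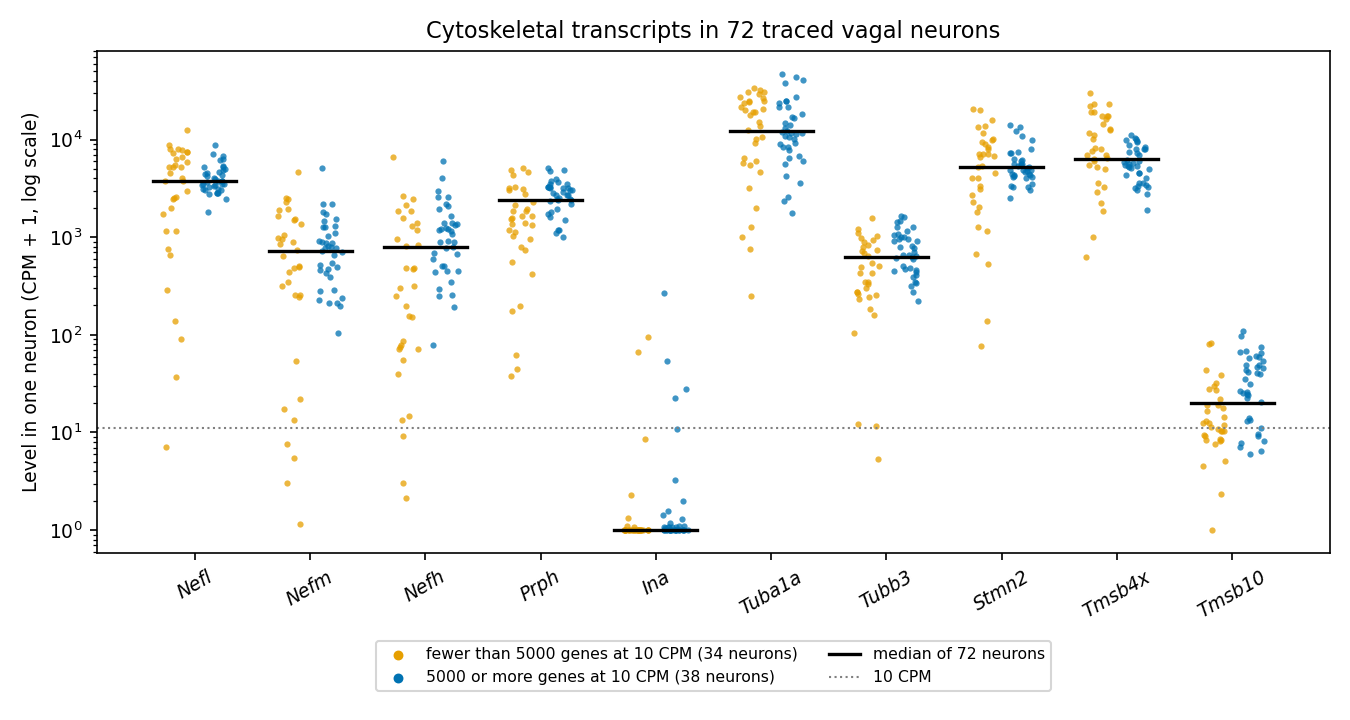
Level of each of the 10 genes (CPM + 1, log scale) in each of 72 neurons, coloured by the number of genes detected in the neuron, with the median of all 72 as a bar and 10 CPM as a dotted line. Tuba1a, Stmn2, Tmsb4x and Prph lie above 10 CPM in all neurons, Ina lies at or near 0 in nearly all, and low values of the neurofilament genes are found in neurons with fewer than 5000 genes.

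Nefl encodes the light subunit, which forms the core of the neurofilament. It lies at chr14:68083863-68089095 on the plus strand (GRCm38, GENCODE M21). Its level was 6.14 CPM in the lowest neuron (AM244), 3806 CPM at the median and 12454 CPM in the highest (AM004), and it reached 10 CPM in 71 of 72. The middle 50% of neurons lay between 2824 and 5313 CPM, a 1.88-fold range, the narrowest of the 9 genes other than Ina. Its rank correlation with the number of genes detected was 0.03.

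Nefm, the medium subunit, whose tail forms side arms between filaments, lies beside Nefl on the opposite strand (chr14:68082590-68124846). Its values ran from 0.162 CPM (AM002) through a median of 726 CPM to 5079 CPM (AM006), with 68 of 72 neurons at 10 CPM. The quartiles, 283.1 and 1289 CPM, were 4.54-fold apart, a wider spread than that of Nefl. In the annotation the 2 genes share 1108 exonic bases, 32.8% of Nefl and 19.2% of Nefm. Whether the authors counted by strand is not given in the sources used here, so reads from those bases cannot be told apart. The first listed Nefm transcript shares none of these bases.

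Nefh, the heavy subunit, is added late in axon maturation and is the neurofilament most used to mark myelinated sensory neurons (chr11:4938754-4948064, minus strand). It was at 1.14 CPM in AM002, 792 CPM at the median and 6680 CPM in AM302, and 69 of 72 neurons reached 10 CPM. Its quartiles (249.02 and 1399 CPM) were 5.60-fold apart, the widest spread of the 10 genes apart from Ina, whose lower quartile was 0. Nefh followed the number of genes detected more than any other gene of the set (rho = 0.44). Its median was 1000 CPM in the 38 neurons with 5000 or more genes and 311 CPM in the other 34.

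Peripherin (Prph, chr15:99055174-99058978, plus strand) was present in all 72 neurons. The lowest value was 36.5 CPM (AM286), the median 2385 CPM and the highest 5084 CPM (AM291). Its quartiles were 1355 and 3191 CPM. The lowest neuron, AM286, was one of the 6 short of sensory markers, and it held 7490 CPM of Nefl, 1853 CPM of Nefh and 19157 CPM of Tmsb4x.

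Ina encodes alpha-internexin, a filament protein mainly of central and developing neurons (chr19:47014698-47025327, plus strand). It was at 0 in 46 of 72 neurons and reached 10 CPM in 6 (8.33%, exact 95% interval 3.12 to 17.3%, counting error only). Those neurons were AM018 with 268 CPM (5534 counts), AM289 with 93.1, AM248 with 65.4, AM283 with 53.2, AM272 with 26.7 and AM249 with 21.7 CPM. So Ina was at or near 0 in most neurons and was counted well above that in these 6. Ina overlaps Nt5c2 on the opposite strand over 456 exonic bases (14.1% of Ina). Nt5c2 was at 160 CPM in AM018, 0.0638 in AM289, 1.68 in AM248, 57 in AM283, 8.62 in AM272 and 10.7 CPM in AM249. In AM289 and AM248, therefore, Ina was counted with almost no Nt5c2.

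Within each neuron, the 5 filament genes were set against each other per kilobase of exon. Peripherin made up a median of 42.4% and Nefl 40.2% of the filament level, with Nefh at 6.72%, Nefm at 4.28% and Ina at 0. Peripherin was the largest of the 5 in 38 neurons and Nefl in 34. With first-transcript lengths these counts were 42 and 28, and Nefm was largest in 2. The share of peripherin ran from 0.642% (AM286) to 97.5% (AM002), so neurons differed far more in their filament mix than the medians show.

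Per kilobase, the summed neurofilament level was above that of Prph in 46 of 72 neurons (63.9%, exact 95% interval 51.7 to 74.9%). Nefh alone was above Prph in 5 of 72 (6.94%, 2.29 to 15.5%), with a median ratio 5.69-fold below 1. Nefh was 5.64-fold below Nefl at the median and above it in 1 of 72. Light neurofilament and peripherin were thus of similar level, and the heavy subunit lay below both in nearly every traced neuron.

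**Figure D2:**
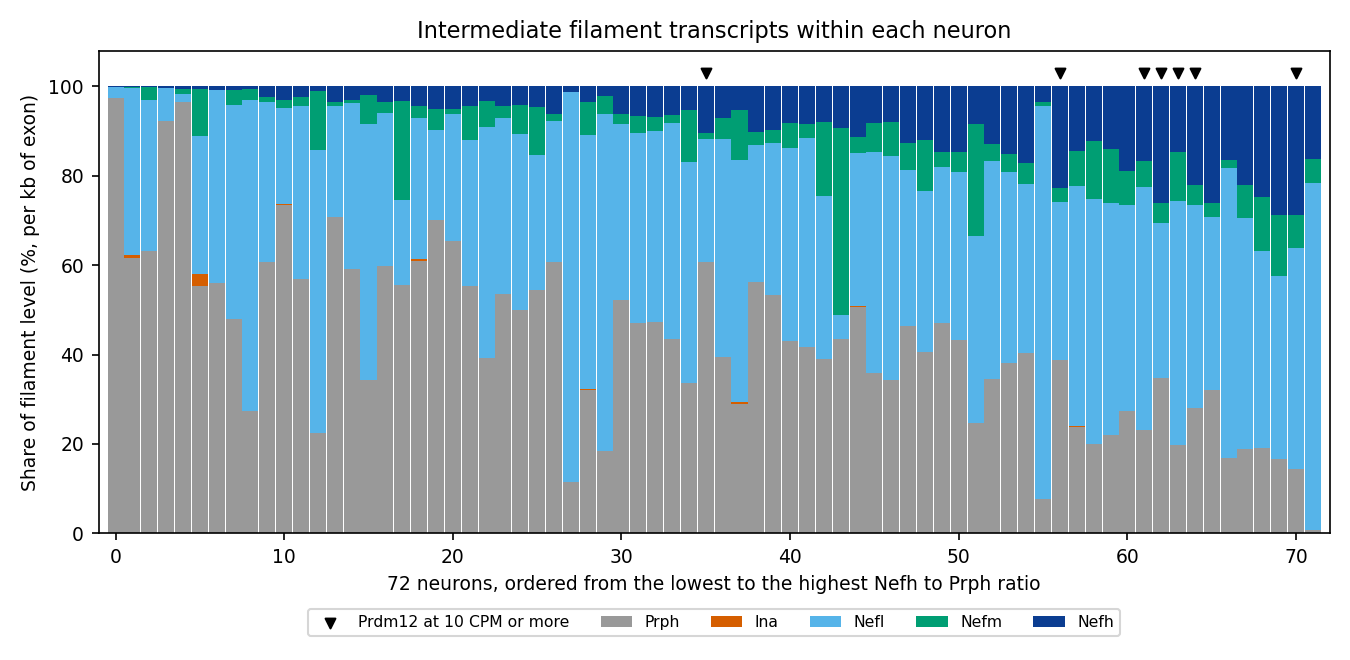
Share of each of 5 filament genes in the summed filament level of a neuron (%, CPM per kb of exon), 1 bar per neuron, ordered by the ratio of Nefh to Prph, with triangles over the 7 neurons with Prdm12 at 10 CPM or more. Prph (grey) falls and Nefh (dark blue) rises from left to right because of the ordering, and 6 of the 7 triangles sit in the right-hand part.

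To follow the ratio from neuron to neuron, where gene length cancels, log2 of (Nefh CPM + 1)/(Prph CPM + 1) was used. It ran from -10.54 in AM002 through a median of -1.51 to 5.63 in AM286, with quartiles of -2.89 and -0.31. Its rank correlation with the number of genes detected was 0.13, lower than that of Nefh alone. The same ratio for the 3 neurofilament genes summed had a median of 1.40 and ran from -4.51 (AM002) to 8.09 (AM286). Both ends of the range were neurons with few genes detected, 1102 in AM002 and 959 in AM286. Among the 38 neurons with 5000 or more genes, log2 Nefh to Prph ran from -5.39 (AM018) to 1.99 (AM011), with a median of -1.47.

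In those 38 neurons the neurofilament and peripherin levels were inversely correlated. The rank correlation of Prph was -0.59 with Nefm, -0.52 with Nefh and -0.31 with Nefl, whereas over all 72 neurons it was -0.16, -0.02 and 0.14. Among the 38, the correlation with Nefh was -0.85 in the 11 neurons of run 1 and -0.37 in the 23 of run 3, that with Nefm was -0.38 and -0.59, and run 2 had too few (4). The 3 neurofilament genes were positively correlated over the 72 neurons: rho was 0.51 for Nefl and Nefm, 0.498 for Nefl and Nefh, and 0.55 for Nefm and Nefh. For Nefl and Nefm this includes the exonic bases that they share. Within runs 1, 2 and 3 rho was 0.69, -0.25 and 0.58 for Nefl and Nefm, 0.72, 0.37 and 0.50 for Nefl and Nefh, and 0.38, -0.14 and 0.66 for Nefm and Nefh. The 11 neurons of run 2 thus went the other way for both pairs with Nefm. Points in these correlations share libraries prepared and scaled in the same way, and each is a description of these neurons.

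**Figure D3:**
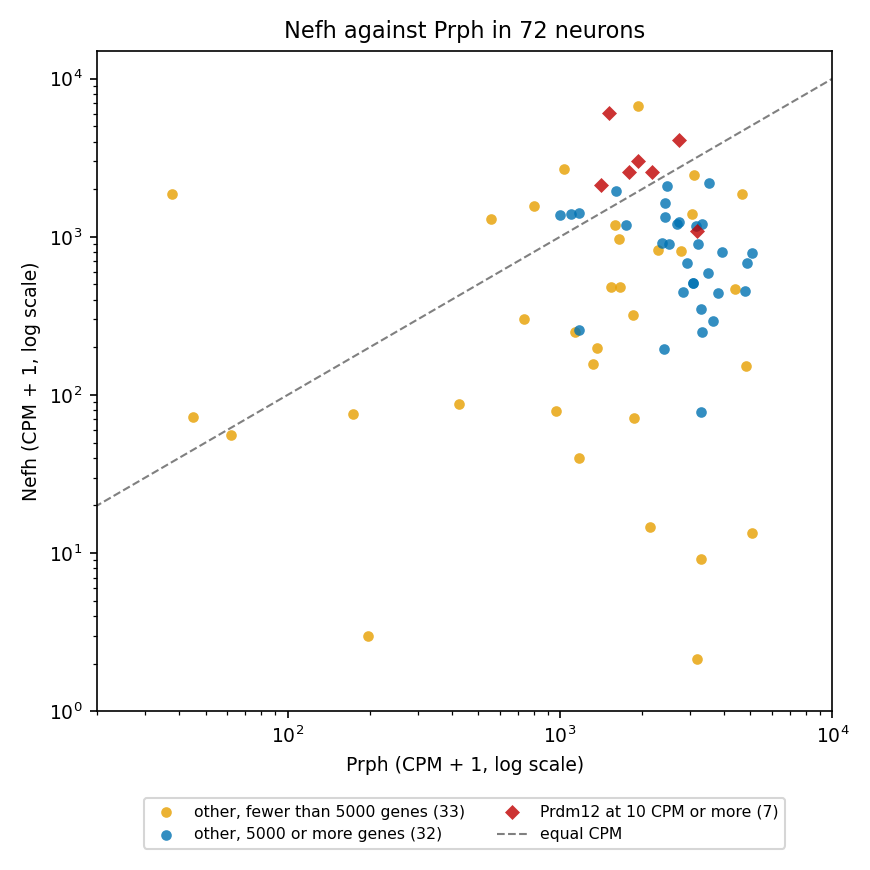
Nefh against Prph (CPM + 1, log scales) in 72 neurons, with the line of equal CPM, red diamonds for the 7 neurons with Prdm12 at 10 CPM or more, and the other 65 coloured by the number of genes detected. Of the diamonds, 6 lie above the line, and the neurons with 5000 or more genes span a wide range of Nefh over a narrow range of Prph.

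Prdm12, a transcription factor of neural crest-derived sensory neurons, marks neurons of the jugular ganglion and reached 10 CPM in 7 of 72 neurons. Heavy neurofilament was high in them. Their Nefh levels were 1091 CPM in AM296, 2118 in AM304, 2558 in AM303, 2584 in AM013, 3012 in AM237, 4081 in AM228 and 6020 CPM in AM011. In the other 65 neurons Nefh ran from 1.14 through a median of 592 to 6680 CPM, and the 2 that reached the Prdm12 median of 2584 CPM were AM302 (6680) and AM223 (2670). The groups overlap, but the difference of medians was 2.11 on a log2 scale (4.31-fold, of CPM + 10).

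The 7 neurons also had more genes detected, a median of 8091 against 4870. Among neurons with 5000 or more genes the comparison is closer in richness, 6 neurons with a median of 8107 genes against 32 with 7851.5. There the Nefh difference was 1.71 (3.28-fold), and 0 of the 32 others reached the Prdm12 median of 2798 CPM. All 6 of these Prdm12 neurons also had Piezo2, a channel gene described below, at 10 CPM. The 14 other neurons with Piezo2 had a median Nefh of 1354 CPM, against 847 CPM for all 32 others, so they lay closer to the Prdm12 neurons. With trimmed mean (TMM) scaling the Nefh difference between Prdm12 and other neurons was 1.48 over all 72 and 1.59 in the richer neurons. That scaling moved the median of all genes over the 72 from 0.60 to 0.30, with the groups held fixed. The TMM factors ran from 0.0555 to 2.17 and followed the number of genes detected (rho = 0.98). Their median was 1.87 in Prdm12 neurons and 1.24 in the others.

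The ratio showed the same order. Log2 Nefh to Prph was -1.55 in AM296, 0.23 in AM303, 0.53 in AM013, 0.58 in AM228, 0.58 in AM304, 0.64 in AM237 and 1.99 in AM011. In the other 65 neurons its median was -1.78, and 10 of them were above 0. The ratio in CPM, not adjusted for length, was thus above 1 in 6 of 7 Prdm12 neurons and 10 of 65 others. The medians, 0.58 and -1.78, differed by 2.37, and by 2.52 among neurons with 5000 or more genes. In those richer neurons the median was 0.55 with Prdm12, -0.77 in the 14 others with Piezo2 and -1.97 in all 32 others. Over all kept neurons the Prdm12 difference was 2.92 within run 1 (2 against 14 neurons) and 2.82 within run 3 (5 against 40). Run 2 held no Prdm12 neuron. For the summed neurofilament genes the difference was 0.97, and it depended more on the neurons used. It was 0.53 without run 1, 1.58 without run 3, 0.56 with Prdm12 counted from 1 count (22 neurons) and 1.67 with Prdm12 at 50 CPM (3 neurons). Satellite glia genes summed to a median of 294.7 CPM where Prdm12 was detected and 1440 CPM elsewhere, and their part in these differences was not tested.

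The rest of the set differed less between these neurons. At a 2-fold difference of medians, 2 of 10 genes were higher in Prdm12 neurons (background 28.4% of 11351 genes) and 0 were lower (background 0.969%). Among neurons with 5000 or more genes, 1 of 10 was higher (background 4.62%) and 0 were lower (background 2.61%). The share of genes higher over all 72 neurons was thus no larger than the background, which was itself high in this comparison of neurons that differ in genes detected. Besides Nefh, the gene past 2-fold was Tmsb10, with medians of 53.1 and 16.9 CPM (log2 difference 1.23), and the difference was 0.94 in the neurons with 5000 or more genes. Under TMM scaling of all 72, with Prdm12 called on the scaled levels, Tmsb10 was not past 2-fold (0.43). Tuba1a was past it on the lower side (-1.32 in place of -0.27), and Tmsb4x was at -0.99. With the groups held fixed, Tmsb10, Tuba1a and Tmsb4x were at 0.51, -1.26 and -1.08. In the neurons with 5000 or more genes they were then at 0.64, -0.20 and -0.24, so none of these 3 was past 2-fold there. Other choices also put a gene of the set past 2-fold. Without run 3 (2 Prdm12 neurons) Nefl was at 1.36 and Nefm at 1.16. With Prdm12 at 50 CPM (3 neurons) Nefm was at 1.63 and Tmsb4x at -1.09. With all 84 neurons, those of low depth included, Nefm was at 1.04. The median log2 difference was 0.25 for the 10 genes and 0.60 for all genes tested, and 0.18 against 0.08 in the richer neurons. Prph had medians of 1927 and 2421 CPM (-0.33), Nefl 5273 and 3736 CPM (0.50), and Nefm 1027 and 706 CPM (0.54), all within the range of the other group.

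Among the 32 neurons with 5000 or more genes and no Prdm12, the ratio was then described by markers of vagal sensory classes, at 10 CPM. Piezo2 encodes the mechanically gated channel of stretch and touch receptors. Log2 Nefh to Prph had a median of -0.77 in the 14 neurons with Piezo2 and -2.59 in the 18 without, and 1 of those 18 was at or above -0.77. The lowest of the 14 was AM018 (-5.39), so the ranges overlap. Nefh medians were 1354 and 636 CPM (2.11-fold), Nefm 863 and 441 CPM, Nefl 3540 and 3733 CPM, and Prph 2450 and 3247 CPM. The log2 ratio of the summed neurofilament genes to Prph had medians of 1.38 with Piezo2 and 0.52 without. It was higher with Piezo2 in runs 2 and 3 but not in run 1 (1.14 and 1.26). Of the 10 genes, 1 was at least 2-fold higher with Piezo2 (Nefh, background 2.63%) and 1 at least 2-fold lower (Tuba1a, 7592 and 15889 CPM, background 1.65%). Runs 1, 2 and 3 gave 5, 3 and 6 of the neurons with Piezo2 and 4, 1 and 13 of those without. Tuba1a itself differed between runs, as described below, and its difference by Piezo2 within runs was not computed. Genes detected were similar, with medians of 7755 and 7851.5. Among the 32 neurons the ratio was higher with Piezo2 in each run of identifiers, by 0.79, 1.13 and 2.49 in runs 1, 2 and 3. Over all kept neurons, those with Prdm12 included, the differences were 0.97, 1.39 and 2.99.

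Ntrk3, the neurotrophin-3 receptor of large mechanosensory and proprioceptive neurons, gave the same order, with a median ratio of -0.68 in 13 neurons and -2.58 in 19. Nefh was 2.30-fold higher with Ntrk3, the only one of the 10 genes past 2-fold (background 2.95%). Within runs 1, 2 and 3 the ratio differed by 1.68, 1.13 and 1.91 among the 32 neurons, with 1 neuron without Ntrk3 in run 2. Over all kept neurons, those with Prdm12 included, it differed by 2.67, 1.86 and 1.68. Scn1a, the voltage-gated sodium channel of fast-conducting sensory neurons, gave medians of -1.14 in 15 neurons and -2.65 in 17. Of the 10 genes, 1 was at least 2-fold higher with Scn1a (Nefh, background 4.47%) and 0 were lower (background 1.21%). For Scn1a the difference over all kept neurons was 2.23 in run 1 and 2.34 in run 3 but -1.31 in run 2, where 7 neurons had it and 4 did not. Among the 32 neurons the difference was 2.59 in run 1 and 1.33 in run 3, and it is not given for run 2. The ratio of Nefh to Prph was therefore higher with each of these 3 markers, with run 2 reversing the order for Scn1a over all kept neurons.

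Neurons with Trpv1, the capsaicin and heat receptor of nociceptive C-fibres, had the reverse mix. The median ratio was -3.03 in 12 neurons with it and -1.26 in 20 without, and 0 of the 12 were above 0. Nefh was at 450 CPM with Trpv1 and 1194 CPM without, and Nefm at 336 and 840 CPM. These were the 2 of 10 genes at least 2-fold lower (background 2.88%), while 0 were higher (background 2.55%). Prph medians were 3283 and 2486 CPM. Over all kept neurons the difference was -2.78 in run 1 and -1.60 in run 3 but 1.12 in run 2, with 4 Trpv1 neurons there. Among the 32 neurons the differences in runs 1, 2 and 3 were -2.93, 0.30 and -1.66, with 1 Trpv1 neuron in run 2.

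P2rx2, an ATP-gated channel subunit of nodose neurons, was present in 26 of these 32 neurons. Their median ratio was -2.42, and the 6 neurons without it had a median of -0.15 and a lowest value of -2.10. The 6 had fewer genes detected (median 6085 against 7894.5). Over all kept neurons the differences in runs 1, 2 and 3 were -1.28, -0.34 and -1.95. Among the 32 neurons they were -1.10, 0.30 and -2.86, with 1 neuron without P2rx2 in each of runs 1 and 2. None of the 10 genes passed 2-fold with P2rx2, 0 higher (background 5.71%) and 0 lower (background 2.25%). Prph was 1.54-fold higher and Nefh 1.91-fold lower with it.

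Peptide, ion channel and gut-hormone receptor markers went with higher and with lower ratios. Neurons with Tac1, which encodes substance P, had a median of -1.16 (21 neurons) against -2.58 without (11), and 0 of the 11 reached -1.16. Nefh was the 1 gene of 10 at least 2-fold higher with Tac1 (background 2.36%), and 0 were lower (background 1.2%). Neurons with Calca, the gene of the peptide CGRP, had -2.42 (8) against -1.47 (24). Those with Htr3a, a serotonin-gated channel subunit, had -3.11 (11) against -1.46 (21), and those with Trpa1, an irritant receptor, had -2.70 (9) against -1.46 (23). For Npy2r, a neuropeptide Y receptor, the medians were -1.84 (17) and -2.10 (15), and the groups overlapped almost completely. Cckar, a cholecystokinin receptor, gave -1.45 (18) against -2.59 (14). Scn10a, the sodium channel of most C-fibre neurons, gave -1.48 (27) against -2.56 (5).

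**Figure D4:**
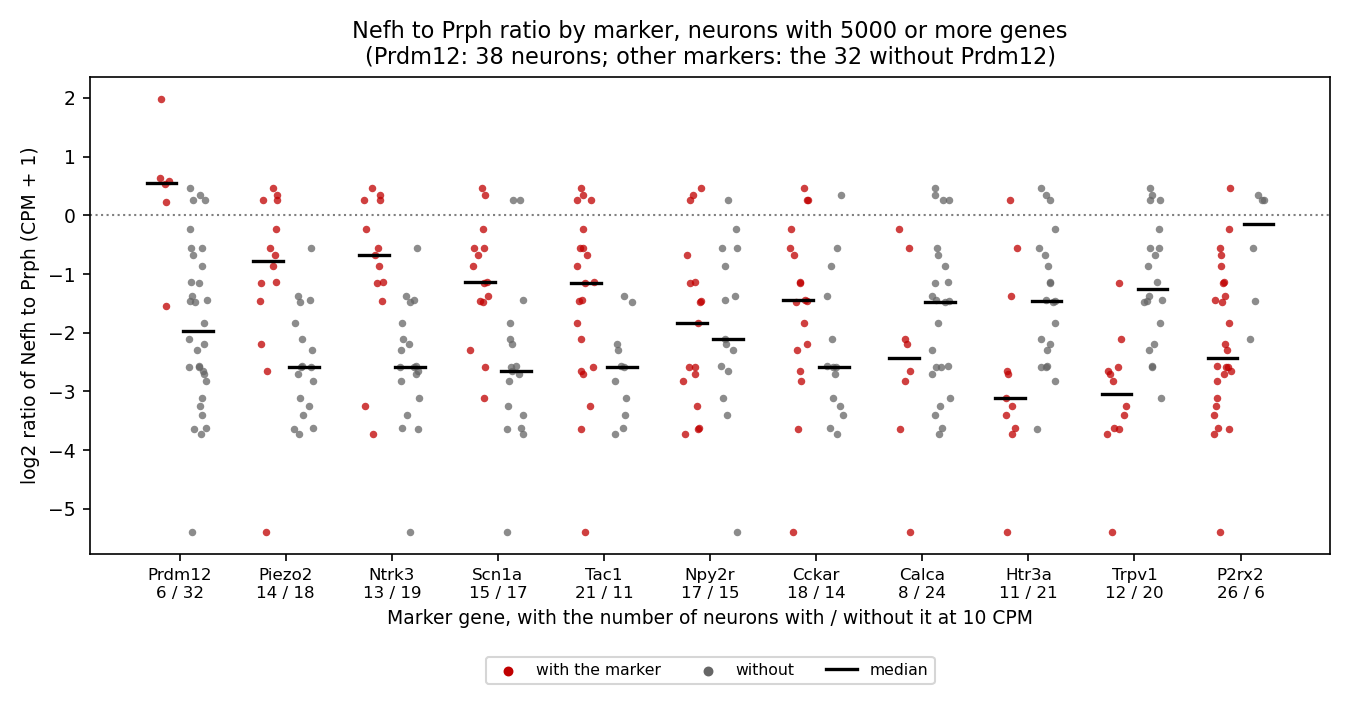
Log2 ratio of Nefh to Prph (CPM + 1) in single neurons with (red) and without (grey) each marker at 10 CPM, with medians as bars, in 38 neurons with 5000 or more genes for Prdm12 and in the 32 of them without Prdm12 for the other markers. The ratio is higher with Prdm12, Piezo2, Ntrk3, Scn1a and Tac1, lower with Trpv1, Htr3a and P2rx2, and the medians are closest for Npy2r.

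The ratio was set against 12 genes linked to A-fibres and 10 linked to C-fibres. In the 38 neurons with 5000 or more genes, 7 of the 12 A-fibre genes had a rho of 0.5 or more with the ratio (background 2.33% of 11351 genes), led by Scn1a (0.73) and the nodal sodium channel Scn8a (0.69). Their median rho was 0.53, against 0.02 for all genes tested. The median was 0.41, with 5 of 12 at 0.5 or more (background 2.43%), once Prdm12 neurons were left out, and 0 were at -0.5 or less (background 1.79%). Over all 72 neurons it was 0.38, with 2 of 12 at 0.5 or more (background 0.22%) and 0 at -0.5 or less (background 0.0352%). Of the 10 C-fibre genes in the 38 neurons, 0 reached 0.5 and 1, Trpv1 (-0.51), reached -0.5 (background 1.14%), with a median rho of -0.03. Without Prdm12 neurons Tac1 was at 0.63 and Trpv1 at -0.69, with a median of -0.07. Over all 72 neurons 0 of the 10 reached either bound, with Trpv1 at -0.11 and a median of 0.04. The mean level of the A-fibre list, as log2(CPM + 1), had a rho of 0.55 with the ratio over 72 neurons and 0.73 over 38, and one of 0.72 with the number of genes detected over 72. Over 72 and 38 neurons its rho was 0.69 and 0.74 with Nefh alone and 0.01 and -0.46 with Prph. With the ratio of the summed neurofilament genes to Prph it was 0.25 and 0.61. The mean of the C-fibre list had a rho of 0.17 with the ratio over 72 neurons and -0.03 over 38, and one of 0.57 with the number of genes detected over 72. Over the 38 neurons its rho was -0.39 with Nefl, -0.34 with Nefm, 0.02 with Nefh and 0.04 with Prph. The list of A-fibre genes holds Scn1a and Ntrk3, and that of C-fibre genes Trpv1, Trpa1, Calca, Tac1 and Scn10a, all described above.

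Tuba1a, an alpha-tubulin of growing and adult neurons (chr15:98949837-98953703, minus strand), ran from 248.7 CPM (AM287) through a median of 12319 CPM to 47510 CPM (AM221). Its quartiles, 6481 and 23631 CPM, were 3.65-fold apart. Per kilobase it made up a median of 82.99% of the summed level of 6 alpha-tubulin genes (39.6 to 99.9%) and was the largest in 71 of 72 neurons. Tuba1b, at 15.8%, was the next. The sequence limits this comparison: 70.2% of the 76-base windows of the Tuba1a transcript also occur in other annotated transcripts, 39.6% in Tuba1c and 33.9% in Tuba1b. Tuba1a also overlaps the annotated gene Gm49450 on the same strand over 473 exonic bases (26.2% of Tuba1a). Counting by strand would not separate reads from those bases. How reads that fit several genes were counted is not given in the sources used here, so the split between alpha-tubulins is uncertain.

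Tuba1a also differed between runs of identifiers, with medians of 14042, 3173 and 19013 CPM in runs 1, 2 and 3. In run 2 it ran from 761 to 9298 CPM, in run 1 from 6725 to 32280 and in run 3 from 248.7 to 47510 CPM, so run 2 lay low but overlapped both. In the neurons with 5000 or more genes, the 4 of run 2 (1761 to 4226 CPM) lay below all 11 of run 1 (6725 to 24819 CPM). Tubb3 was higher in run 3 (median 839 CPM) than in runs 1 and 2 (337 and 351 CPM), and Tmsb4x was lowest in run 1 (3622 CPM, against 6463 and 7988). What the runs stand for is not given in the labels.

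Tubb3, the beta-tubulin long used to mark neurons (chr8:123411424-123422015, plus strand), had 4.31 CPM in the lowest neuron (AM287), a median of 622 CPM and 1641 CPM in the highest (AM228). It reached 10 CPM in 71 of 72. It was not the main beta-tubulin of these neurons. Per kilobase its median share of 8 beta-tubulin genes was 14.9%, below Tubb5 (42.9%, the largest in 49 neurons) and Tubb2a (23.8%, the largest in 18), and it was the largest in 2.

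Stmn2, a stathmin that binds tubulin and is needed for axon growth and repair, lies at chr3:8509360-8561606 on the plus strand. It ran from 76.7 CPM (AM244) through 5250 CPM to 20558 CPM (AM297), with quartiles of 3888 and 7608 CPM. These extremes were both in neurons short of sensory markers. Per kilobase of all exons, Stmn3 was the largest of 4 stathmins in 47 neurons (median share 54.2%) and Stmn2 in 22 (40.7%). Stmn2 has exons of several transcripts, and its level per kilobase was 937 over all of them and 2532 over the first listed transcript, so its rank beside Stmn3 rests on the length used.

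The thymosins are short peptides that bind actin monomers, and this pair differed widely in level. Their coding sequences (GENCODE M21, GRCm38, stop codon left out) are shown because counts for genes this alike could be mixed up. Both are 132 bases long, 92 of which (69.7%) are identical, and capitals mark the 40 positions that differ. The Tmsb4x sequence comes from chrX:167207504-167208036 and that of Tmsb10 from chr6:72957621-72958012, both on the minus strand and with introns removed.
Tmsb4x: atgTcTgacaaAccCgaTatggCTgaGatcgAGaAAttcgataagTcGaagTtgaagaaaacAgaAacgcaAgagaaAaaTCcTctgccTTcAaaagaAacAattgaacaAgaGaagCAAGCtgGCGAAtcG
Tmsb10: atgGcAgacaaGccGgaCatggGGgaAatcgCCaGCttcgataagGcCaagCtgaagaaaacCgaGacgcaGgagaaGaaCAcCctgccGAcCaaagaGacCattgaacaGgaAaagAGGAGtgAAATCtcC

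Differences are spread along the whole coding sequence, and 0 of the 76-base windows of Tmsb4x occur in another annotated transcript. Tmsb4x ran from 624 CPM (AM287) through a median of 6366 CPM to 30360 CPM (AM295). Tmsb10 ran from 0 (AM287) through 19.02 CPM to 109 CPM (AM291) and reached 10 CPM in 50 of 72 neurons (69.4%). Per kilobase, Tmsb4x made up a median of 99.7% of the pair and at least 92.1%. For Tmsb10, 40.5% of the windows of its first listed transcript also occur in the copies Gm9844 and Gm3788, whose medians were 1.77 and 5.81 CPM. Their levels followed Tmsb10 over neurons (rho = 0.83 and 0.86), so the Tmsb10 level may be split among them. All 3 medians stayed far below that of Tmsb4x.

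Taken over all 72 neurons, thymosin levels moved in opposite directions with library richness. The rank correlation with the number of genes detected was 0.43 for Tmsb10 and -0.32 for Tmsb4x. Within runs 1, 2 and 3 it was 0.40, 0.02 and 0.48 for Tmsb10, and 0.04, -0.37 and -0.32 for Tmsb4x. Tmsb4x was thus near 0 in run 1 and Tmsb10 near 0 in run 2. For Tuba1a the correlation over all 72 was -0.15 and for Stmn2 -0.02, but within the 38 richer neurons these were -0.59 and -0.54. Over 72 neurons, 0 of 10 genes had a rho of 0.5 or more (background 66.8%) or of -0.5 or less (background 0.194%), and the median was 0.19 against 0.58 for all genes tested.

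The 10 genes did not form a single group across neurons. Of 45 pairs, 5 had a rho of 0.5 or more, and the median was 0.20. Without Ina, which reached 10 CPM in only 6 neurons, 36 pairs were left, including all 5, with a median of 0.22. Among the 5458 genes at 10 CPM in at least 50% of neurons, 7.24% of pairs reached 0.5 and the median was 0.28. Outside the neurofilaments, the highest were Tuba1a with Stmn2 (0.56), Tubb3 with Tmsb10 (0.53) and Tubb3 with Stmn2 (0.52). Within runs 1, 2 and 3 these were -0.05, 0.55 and 0.66 for Tuba1a with Stmn2, 0.64, 0.56 and 0.69 for Tubb3 with Tmsb10, and 0.74, 0.25 and 0.25 for Tubb3 with Stmn2. Of the 3, the pair of Tubb3 and Tmsb10 was thus above 0.5 in every run, while Tuba1a and Stmn2 were near 0 in run 1. The 2 thymosins had a rho of -0.08, and the 2 tubulins one of 0.19. In the richer neurons the rho of Stmn2 with Tmsb4x was 0.63 (0.30 and 0.36 within runs 1 and 3) and that of Tubb3 with Tmsb10 was 0.65 (0.70 and 0.65).

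**Figure D5:**
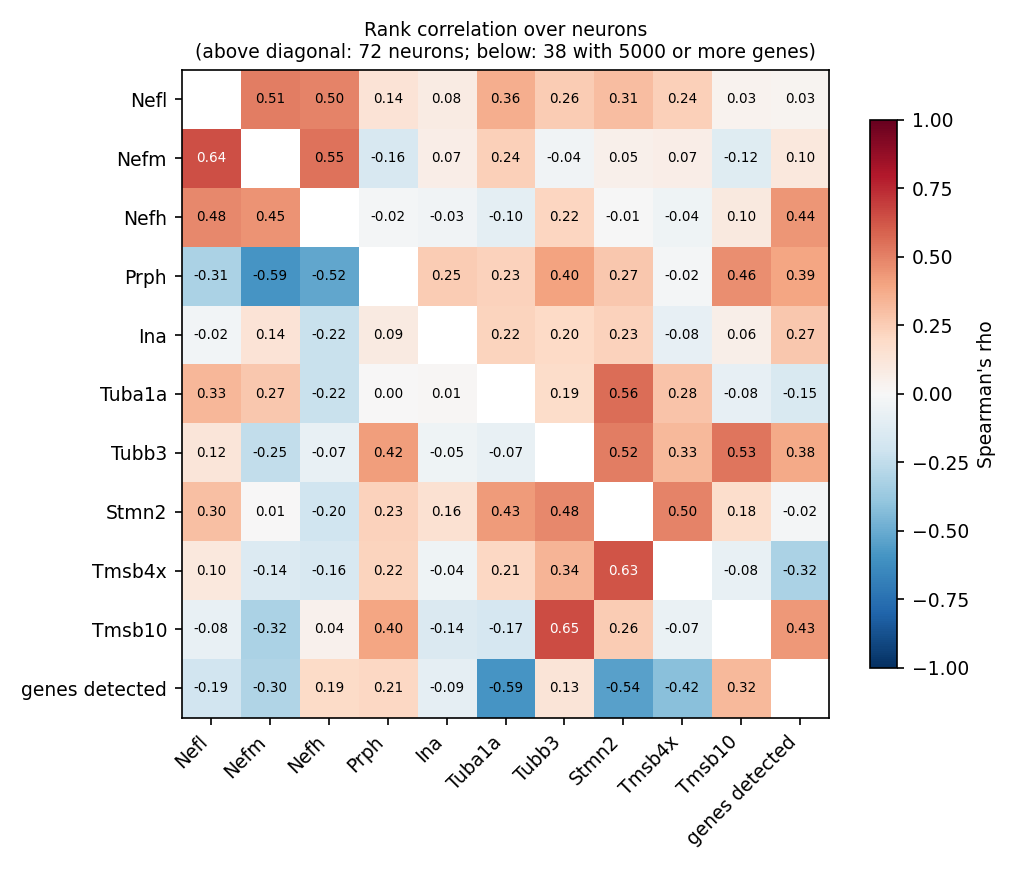
Spearman's rho between the levels of the 10 genes and with the number of genes detected, over 72 neurons above the diagonal and over the 38 with 5000 or more genes below it. The neurofilament block at top left is positive on both sides, and Prph turns from near 0 with Nefh and Nefm (-0.02 and -0.16) to -0.52 and -0.59 in the richer neurons.

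Other genes were ranked by their likeness to each gene of the set, among 5444 genes at 10 CPM in at least 50% of neurons, over 72 neurons. The genes most like Nefh were Cpne6 (rho = 0.73), Pygb (0.72), which encodes a glycogen phosphorylase, and Rnf157 (0.71). Nefm was most like Chgb (0.57), a granin of secretory vesicles, and Nefl had no close partner, with Snn first at 0.46. Prph was most like Capns1 and Pcsk1n (both 0.66). The tubulin Tubb5 came first for both Tubb3 (0.65) and Stmn2 (0.64). For Tuba1a the first was Gm7172 (0.71), then the tubulin Tubb2b (0.65). Gm7172 is a processed pseudogene in which 2.66% of the sequence windows of Tuba1a also occur. Whether shared reads add to the rho of Gm7172 with Tuba1a was not tested. For Tmsb4x the order was Gm20900 (0.69), Mir703 (0.68) and Hint1 (0.66), and Sh3bgrl3 was first for Tmsb10 (0.72).

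For the ratio of Nefh to Prph itself, the highest were Cntn1 (0.59), an axonal cell adhesion protein found near nodes of Ranvier, Myh10 (0.53) and Pak1ip1 (0.53). The lowest were Lgals1 (-0.57), which encodes galectin 1, Gng2 (-0.54) and Celf6 (-0.53). In the 38 richer neurons these 6 kept their sign, with 0.66, 0.74 and 0.73 for the first 3 and -0.76, -0.66 and -0.87 for the last 3. Celf6, an RNA-binding protein, was thus the most opposed of the 6 there, at a median level of 16.6 CPM.

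Among the other genes of the cytoskeleton, 10 of 13 further tubulins reached 10 CPM in some neuron and 8 did so in at least 50%, led by Tubb5 (median 3249 CPM), Tuba1b (2828) and Tubb2a (909). Of 10 other intermediate filament genes, 3 were present in at least 50% of neurons, namely Synm (198 CPM), Vim (172) and Lmna (49.8), the last a nuclear lamin. Gfap, the filament of astrocytes and some glia, and the keratins Krt8 and Krt18 reached 10 CPM in 0 of 72 neurons, which allows a share of up to 4.17% by a limit of 3 neurons and up to 4.99% by the exact interval (counting error only). All 12 microtubule-associated genes were found, 11 of them in at least 50% of neurons, led by Map1b (3378 CPM), which stabilises axonal microtubules. All 11 motor and spectrin genes were present in at least 50%, led by Sptbn1 (879 CPM), Kif5b (769) and Kif5c (572), the last 2 being kinesins that carry cargo along axons. Of 8 other thymosin and actin genes, 5 were present in at least 50%, with Actb (1658 CPM) and Pfn2 (1270 CPM) highest.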

How the data were processed

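Single traced vagal neurons were measured by RNA sequencing. The deposited values are raw read counts per Ensembl gene, made by the authors with featureCounts, per the submitters' processing notes. Not given in the sources used here are its version, the aligner, the genome build, the annotation and the strand setting. No molecular identifiers are mentioned in the labels, so amplified copies count more than once, and intervals cover counting error only.

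Of 50686 gene identifiers, 50376 had a symbol in GENCODE M21 (GRCm38). Exon lengths, overlaps and shared 76-base windows came from the same annotation, which need not be the authors'. CPM were computed from each neuron's total, neurons under 5000000 counts were left out, and detection was set at 10 CPM. The depth of the kept neurons was 6732279 to 20668832 counts. Ratios used log2 of CPM plus 1, and differences between groups of neurons used the ratio of medians of CPM plus 10, called at 2-fold over genes at 10 CPM in 5 or more neurons. Correlations are Spearman's rho. Intervals of shares are exact (Clopper-Pearson, 95%). No 2 neurons had identical counts.

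Since the labels name 1 group and no animal, no test between groups was run. The genes, the marker lists and the rules were chosen with earlier results of these data known. The genes named are the 10 of the set, up to 3 of each related list by median CPM (for the glial and leukocyte lists only sums and Ptprc), the 3 most like each gene or the ratio, and the fibre and class markers. Likeness to Ina is not given, since most of its values are 0. Alternatives covered detection, the neuron filter, thinning to 5000000 counts, TMM scaling (edgeR 4.0.16, R 4.3.3), mitochondrial genes, pseudocounts, gene length, list scores, the Prdm12 threshold and each run of identifiers left out. The fold rule and the rank correlation were tested on simulated counts. These were drawn from a mean profile shared by all neurons, apart from the genes made to differ. Wide differences in genes detected were therefore not simulated. Python 3.11.15, numpy 2.4.6, pandas 2.3.3, scipy 1.17.1 and matplotlib 3.10.9 were used, with seed 1.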

Additional observations from a re-analysis of the deposited data

Results flagged for a closer look

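The 12 neurons with 576966 to 3892206 counts were left out of the report and also carried most of these transcripts. At 10 CPM, Prph, Tuba1a, Stmn2 and Tmsb4x were found in 12 of 12, Nefl in 11, Nefm, Nefh and Tubb3 in 10 each, Tmsb10 in 3 and Ina in 0. Their median levels were 272.9 CPM for Nefl, 640 CPM for Prph, 679 CPM for Nefh, 1208 CPM for Tuba1a and 7071 CPM for Tmsb4x. These values are listed because the comparisons do not use those neurons, and there is no control sample to set them against.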

How the results depend on the processing

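Of 105 alternatives for 9 summary results, 96 left the result within its tolerance, which was 0.1 for a rho, 1.5 times for a count, the exact interval for a share and 0.5 of the interquartile range over neurons for other values. The number of genes at 10 CPM in every neuron was 4, and 8 in the neurons with 5000 or more genes and 8 at a threshold of 1 count. The share over all genes was not computed for either of these settings, so the counts of 8 have no background. Per kilobase of exon, the median log2 ratio of the summed neurofilament genes to Prph was 0.44 in place of 1.40, and the share of neurons above 1 was 63.9% in place of 90.3%, by the lengths used. The rho of the A-fibre list with the ratio was 0.42 in all 84 neurons and 0.73 with 5000 or more genes, against 0.55. For the C-fibre list it was -0.031 with 5000 or more genes, 0.34 without run 3 and 0.070 where Nefh and Prph were both at 10 CPM, against 0.17. The cause was not tested. The Prdm12 difference in log2 Nefh to Prph stayed between 1.91 and 2.73, and that for the summed neurofilament genes between 0.53 and 1.67. For single genes 210 of 220 alternatives changed nothing past tolerance. Under TMM scaling of all kept neurons the Prdm12 difference of Tuba1a was -1.32, past 2-fold, and that of Tmsb10 was 0.43, no longer past it. In the neurons with 5000 or more genes that of Tuba1a under TMM scaling was -0.20. Leaving out the 6 neurons short of sensory markers, chosen after seeing the data, was among these alternatives and moved no summary result past its tolerance. No paired analysis was possible because the labels name 1 group and no result comes from a test. In the shallowest kept neuron 10 CPM was 67.3 counts, and thinning to 5000000 counts moved no summary result past its tolerance.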
